A study of Triticum aestivum with 3 samples.

Results

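Genes that carry the repressive histone mark H3K27me3 together with an active mark, H3K36me3 or H3K9ac, were examined among the genes joined by gene-to-gene loops (GGLs) in shoots of hexaploid wheat. A gene counted as marked if the study's loop table showed the mark on at least 1 of its intervals, and expression played no part in the choice. Of the 2060 looped genes in the rows of the loop table used here (all from chromosomes 1A and 1B), 118 (5.73%) met this rule and are called dual-marked genes below. They made up 17.1% of the 689 looped genes with H3K27me3 and 11.4% of the 1034 with H3K36me3 or H3K9ac. The expression tables hold 165276 genes in all. They were compared with 571 H3K27me3-only genes, which have neither H3K36me3 nor H3K9ac. The second comparison was with 916 active-only genes, which have H3K36me3 or H3K9ac and no H3K27me3. H3K4me3, described below, was not part of these definitions and was listed on 44.8% of the H3K27me3-only genes. The other 455 looped genes had none of the 3 histone marks. Of the 2060 looped genes, 1645 were on chromosome 1A and 415 on chromosome 1B. How much of each chromosome these rows cover was not checked beyond the positions of dual-marked genes given below.

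Transcripts were measured by poly(A) RNA-seq in 3 libraries from shoots of seedlings of Chinese Spring, the reference cultivar of bread wheat. The plants were wild type and grown on agar plates, with an age of 12 days in the growth protocol and of 14 days in the label for developmental stage. There is 1 condition, and hence no comparison between groups of samples. Estimated counts summed to between 67470696 and 76337649 per library, and in the median detected gene 3 estimated counts correspond to 0.0325 to 0.0343 TPM (the length-corrected share of a library's transcripts). Genes with a median above 0 TPM over the replicates are called expressed. Errors are SDs over the 3 replicates, each taken alone, and genes were never treated as replicates. The labels name the libraries as biological replicates but do not say whether plants were pooled. No defining genes of shoot tissue were checked, because no table used here pairs these identifiers with names.

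H3K27me3 is placed by Polycomb repressive complex 2 and is known in plants for the reversible silencing of developmental and stress-responsive genes. H3K9ac is an acetylation found around the start of transcribed genes, and H3K36me3 is laid down along gene bodies during transcript elongation. H3K27me3 and active marks are usually found on different genes, and in plants their joint presence is known from genes that are poised or that are silent in some cells and transcribed in others. In whole shoots, marks of different cells are read together, and fewer cells with a transcript cannot be told apart from less RNA per cell. The histone peaks were moreover called by the authors on published ChIP-seq data, so that marks and transcripts were not measured on the same plants.

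Both kinds of mark were listed on the same interval in every dual-marked gene, which for most of them followed from the rule. The loop table listed 106 of the 118 genes with 1 interval, which by the rule had to carry H3K27me3 as well as an active mark. The other 12 genes had 2 or more listed intervals, and in each of them at least 1 interval carried both kinds. No gene owed its place to marks listed on separate intervals. However, in each of these 12 genes the longest interval contained all the others. A shared interval therefore says little more than that both kinds were listed on the same gene. In 7 of these 12 genes every interval carried both kinds of mark, and in 5 an interval lacked at least one kind.

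The genes with several intervals show the resolution of these lists. TraesCS1B02G107100LC (chromosome 1B, 55971115 to 56014576, minus strand, IWGSC RefSeq v1.0) was listed with 8 intervals, the most of any dual-marked gene, and the longest of them spans 43462 bases. Besides that longest interval, only the one from 56010369 to 56011843 carried H3K27me3 and H3K9ac, and the remaining 6 carried neither. In TraesCS1B02G092300 (94200895 to 94208581, minus strand), the inner interval from 94204392 to 94206788 carried H3K36me3 and H3K9ac without H3K27me3, so that the repressive peak touched the gene outside it. In TraesCS1A02G442200 (chromosome 1A, 590967265 to 590968975, minus strand), the longer interval was listed without H3K36me3, while the interval from 590968019 to 590968975 inside it was listed with it. Such a gap, in which a longer interval lacks a mark of a shorter one inside it, occurred in 8 of 189 nested combinations of intervals over all looped genes and in 1 dual-marked gene.

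The listed intervals of dual-marked genes had a median span of 1902 bases, against 1523 for H3K27me3-only and 3334.5 for active-only genes. In 65 dual-marked genes the span was under 2000 bases, and in 21 it was 5000 bases or more. The loop table gives no peak positions, so on a given interval the 2 marks may lie on the same or on neighbouring nucleosomes. Whether they lie on the same chromosome copy was not measured.

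Dual-marked genes were expressed at frequencies and levels between those of the other 2 classes. By the median of the replicates 84 of the 118 dual-marked genes (71.2%) were expressed, against 150 of 571 H3K27me3-only genes (26.3%) and 849 of 916 active-only genes (92.7%), with 61.3% of all genes in the tables and 59.9% of all looped genes as the background. In replicates 1, 2 and 3, the share was 67.8%, 70.3% and 78.0% for dual-marked genes, against 25.7%, 27.8% and 28.7% for H3K27me3-only genes and 92.2%, 91.8% and 93.1% for active-only genes. The 3 classes did not overlap in any library.

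The gap to H3K27me3-only genes was 44.6 ± 4.03 percentage points and that to active-only genes was -20.4 ± 4.75 percentage points (SD, n = 3 replicates). Each gap had the same sign in 3 of 3 replicates and was wider than its spread between them. An exact two-sided sign-flip permutation test over the 3 libraries gave p = 0.25 for each, which is the smallest p that 3 libraries can give, so that no threshold could be passed. The share of dual-marked genes expressed varied most between libraries, with an SD of 5.29 percentage points, against 1.53 for H3K27me3-only and 0.667 for active-only genes. The classes hold 118, 571 and 916 genes, so that a single gene moves the share most among dual-marked genes. The part of class size in this order of SDs was not tested. The share of dual-marked genes expressed was highest in replicate 3. With the mean of replicates 1 and 2 the gap to H3K27me3-only genes was 41.0 and that to active-only genes -21.6 percentage points.

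**Figure D1:**
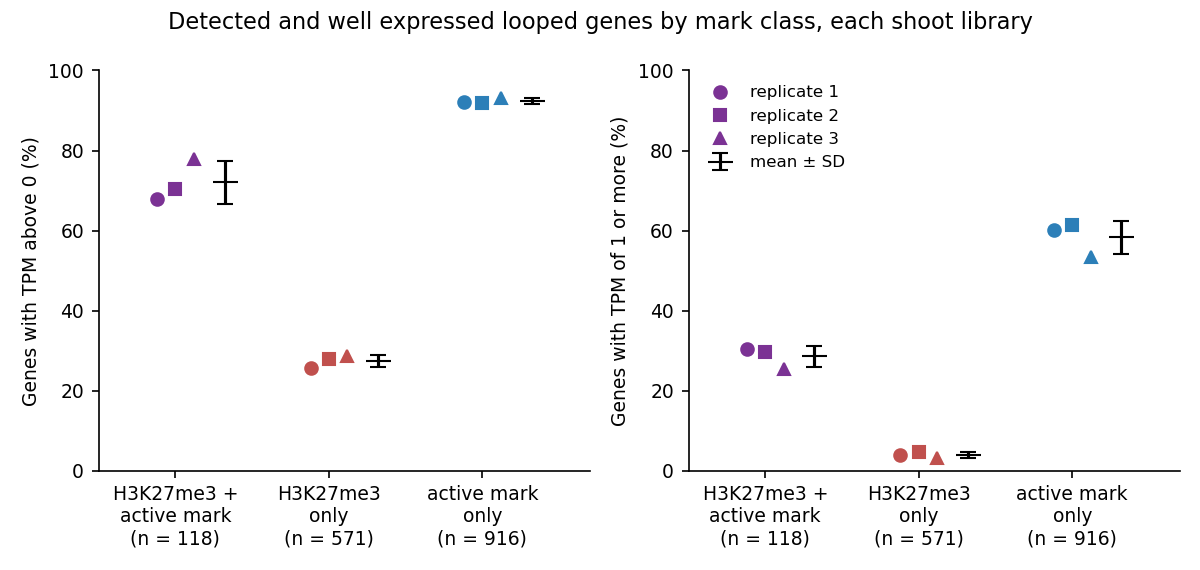
Share of genes with TPM above 0 (left, percent) and of at least 1 TPM (right, percent) in each replicate, for 118 dual-marked, 571 H3K27me3-only and 916 active-only looped genes, with the mean and SD over 3 replicates beside the points. Dual-marked genes lie between 67.8% and 78.0% in the left panel and between 25.4% and 30.5% in the right panel, apart from both other classes in every library.

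By level, too, dual-marked genes lay between the other classes. The median dual-marked gene had 0.137, 0.157 and 0.102 TPM in replicates 1, 2 and 3, against 0 TPM in every replicate for the median H3K27me3-only gene and 1.91, 2.07 and 1.18 TPM for the median active-only gene. Which class they stood nearer to depends on the scale. In TPM the median lay nearer to that of H3K27me3-only genes, and in the share expressed dual-marked genes lay nearer to active-only genes. At least 1 TPM was reached by 34 dual-marked genes (28.8%), against 23 H3K27me3-only genes (4.03%) and 546 active-only genes (59.6%), with 30.3% of all genes in the tables as the background, which the share of dual-marked genes is close to. The gap at this level was 24.8 percentage points to H3K27me3-only and -30.8 to active-only genes. On the scale of the mean log2(TPM + 0.01), dual-marked genes were 3.10 ± 0.10 above H3K27me3-only genes and -2.54 ± 0.20 relative to active-only genes (SD, n = 3 replicates). With a pseudocount of 0.1 instead, the differences of the median values were 1.77 and -1.79, about equal in size.

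The dual-marked genes were not of a single level. The median TPM was 0 in 34, above 0 and under 0.1 in 22, between 0.1 and 1 in 28, between 1 and 10 in 27 and at least 10 in 7. Of the 118 genes, 78 were detected in each of the 3 replicates and 25 in none. For the other 15 (12.7%) the replicates differed, against 15.1% of H3K27me3-only and 5.90% of active-only genes. Over all looped genes this share was 11.6%, near that of dual-marked genes. Among expressed genes alone, the median was 0.520 TPM for dual-marked, 0.0823 for H3K27me3-only and 2.26 for active-only genes. At least 3 estimated counts in the median replicate stood behind 74 of the 118 dual-marked genes (62.7%), against 18.7% of H3K27me3-only and 87.8% of active-only genes, with 53.8% of all genes in the tables as the background.

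**Figure D2:**
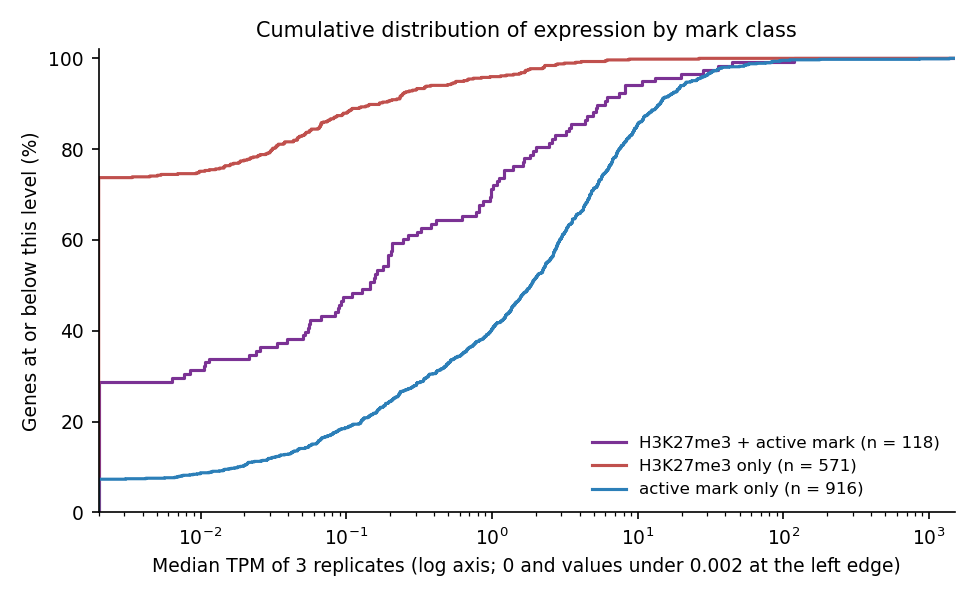
Cumulative share of genes (percent) against the median TPM of 3 replicates on a log axis, for 118 dual-marked, 571 H3K27me3-only and 916 active-only genes. The curve of dual-marked genes starts from the 34 genes at 0 TPM at the left edge and runs between the other 2 curves until the highest levels, where it meets that of active-only genes.

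The active side of dual-marked genes was made up differently from that of active-only genes. H3K9ac was present on 112 of 118 dual-marked genes (94.9%), against 90.8% of active-only genes. H3K36me3, the mark tied to elongation, was present on 58 (49.2%), against 85.0% of active-only genes. In 60 dual-marked genes H3K9ac was the only active histone mark of the rule, in 52 it stood together with H3K36me3, and in 6 H3K36me3 stood without H3K9ac. Each gene had to have at least 1 of these marks, so the split between them, and not their presence, is what was observed.

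RNA polymerase II and H3K4me3, a methylation of promoters of transcribed genes, were not part of the rule. RNA polymerase II was listed on 98 dual-marked genes (83.1%), against 154 of 571 H3K27me3-only and 94.5% of active-only genes. H3K4me3 was listed on 106 (89.8%), against 44.8% of H3K27me3-only and 82.5% of active-only genes. Over all looped genes the shares were 61.4% for RNA polymerase II and 60.5% for H3K4me3. The share of dual-marked genes with H3K4me3 was thus above that of active-only genes, and the share with RNA polymerase II below it. All 5 features were listed together on 47 dual-marked genes, the most frequent combination, followed by 38 genes that lacked only H3K36me3.

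Within dual-marked genes, expression went with H3K36me3 and with RNA polymerase II. Of the 58 genes with H3K36me3, 45 were expressed and 22 reached 1 TPM, against 39 and 12 of the 60 genes without it. In single replicates, 80.5% ± 4.98 of those with H3K36me3 were expressed and 63.9% ± 5.85 of those without it, and the medians were 0.218 ± 0.0417 and 0.0698 ± 0.0185 TPM (SD, n = 3). RNA polymerase II was listed on 98 genes, of which 77 were expressed, whereas 7 of the 20 others were, and the medians of the 3-replicate median were 0.194 and 0 TPM. H3K4me3 showed no such order, with 75 of 106 genes expressed where it was listed and 9 of 12 where it was not. H3K36me3 and RNA polymerase II overlapped, with RNA polymerase II on 52 of the 58 genes with H3K36me3 and 46 of the 60 without it. By the 3-replicate median, the 6 genes with H3K36me3 but not H3K9ac had 0.0481 TPM. The 52 genes with both active marks had 0.339 TPM and the 60 with H3K9ac alone 0.0700 TPM.

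Among genes with RNA polymerase II and both active marks, those with H3K27me3 were lower. The 47 dual-marked genes of this kind had a median of 0.920 ± 0.0857 TPM, against 2.62 ± 0.703 TPM in 681 active-only genes, and 84.4% ± 2.46 and 96.8% ± 0.389 of them were expressed (SD, n = 3). The mean log2(TPM + 0.01) differed by -1.66 ± 0.07, with the same sign in every replicate.

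Among genes with RNA polymerase II and H3K9ac but no H3K36me3, the gap was smaller. The median was 0.141 ± 0.0414 TPM in 46 dual-marked genes and 0.153 ± 0.0220 TPM in 119 active-only genes, a difference of -0.0124 ± 0.0231 TPM, which is within the spread between replicates. The shares expressed, 73.9% ± 6.52 and 79.8% ± 1.46, differed by -5.92 ± 5.31 percentage points. The mean log2(TPM + 0.01) differed by -0.68 ± 0.12, beyond its spread. The 2 sets also differed in H3K4me3, listed on 82.6% of the dual-marked and 60.5% of the active-only genes. With H3K4me3 required as well, the medians lay further apart, at 0.104 ± 0.0109 TPM in 38 dual-marked and 0.205 ± 0.0339 TPM in 72 active-only genes. The shares expressed were then 73.7% ± 7.89 and 83.8% ± 3.50. The 5 dual-marked genes with RNA polymerase II and H3K36me3 alone had a median of 0.00847 ± 0.00388 TPM, against 0.403 ± 0.133 TPM in 66 active-only genes, and are too few to describe a class.

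**Figure D3:**
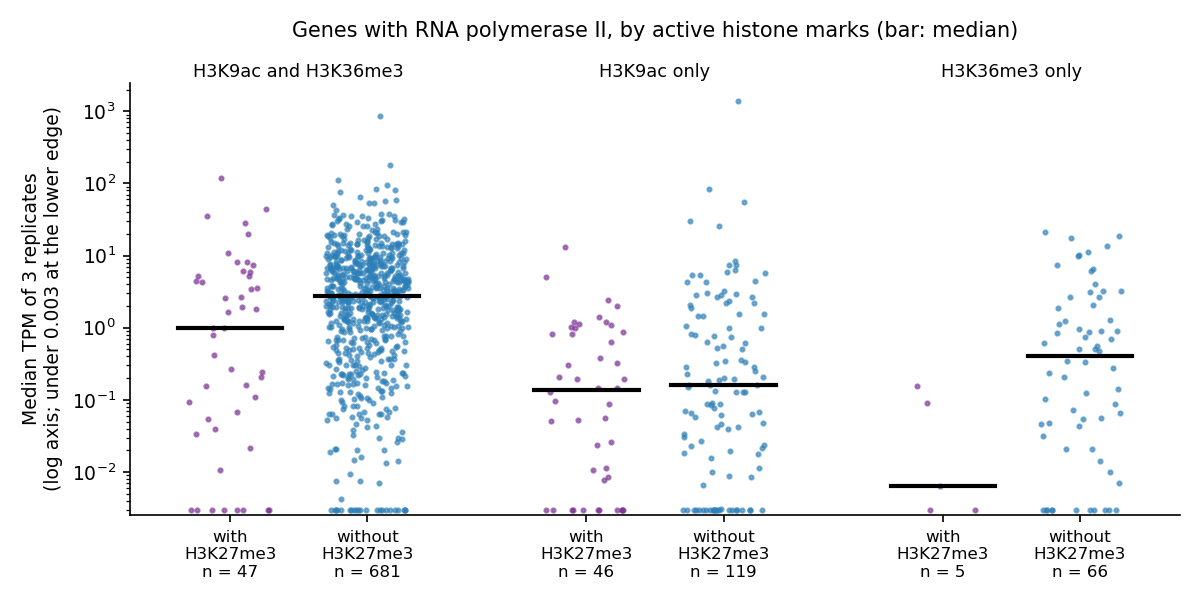
Median TPM of 3 replicates on a log axis for each gene with RNA polymerase II, by its active histone marks, with H3K27me3 (dual-marked) to the left of without H3K27me3 (active-only) in each pair. Bars mark the median gene, at 0.976 TPM with and 2.79 TPM without H3K27me3 for both active marks and at 0.137 and 0.159 TPM for H3K9ac alone.

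The different makeup of the active side was then evened out by weights. When the active-only genes were weighted to the same mixture of H3K9ac, H3K36me3 and RNA polymerase II as the dual-marked genes (6 combinations), 83.7% ± 0.904 of them were expressed, against 72.0% ± 5.29 of dual-marked genes, and without weights the share of active-only genes was 92.4% ± 0.667. The share that reached 1 TPM was 28.5% ± 2.72 in dual-marked genes, 41.6% ± 3.18 in weighted and 58.3% ± 4.21 in unweighted active-only genes. The 3 combinations without RNA polymerase II held only 18, 18 and 14 active-only genes. Among them, 18 active-only genes with H3K9ac alone were weighted to match 14 dual-marked genes. The SDs over replicates do not measure the uncertainty from such small sets. H3K4me3, length and confidence class were not part of the weights. This weighting was chosen after the values were seen.

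Gene length and confidence class also differed between the classes and are given beside them. The longest transcript of a gene had a median length of 1414 bases in dual-marked genes, against 1003 in H3K27me3-only and 1574 in active-only genes. More than 1 transcript was annotated for 11 dual-marked genes (9.32%), against 4.73% of H3K27me3-only, 21.9% of active-only and 12.7% of all looped genes. These 11 genes were all expressed, with a median of 2.45 TPM, whereas 73 of the 107 dual-marked genes with 1 transcript were, with a median of 0.0918 TPM.

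Within each class of transcript length the order of the mark classes was the same. Among the longest genes, with transcripts of 1613 bases or more, 86.1% ± 5.24 of 48 dual-marked genes were expressed, against 43.7% ± 1.18 of 129 H3K27me3-only and 96.4% ± 0.597 of 443 active-only genes. Among the shortest, up to 790 bases, the shares were 58.1% ± 5.59 of 31, 18.2% ± 1.89 of 231 and 79.1% ± 1.69 of 177 genes. The middle class gave 65.8% ± 5.34 of 39 dual-marked genes, against 27.6% ± 2.86 of 211 H3K27me3-only and 94.4% ± 0.195 of 296 active-only genes (SD, n = 3).

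By the study's methods, low-confidence genes were kept in the annotation only where they overlapped a peak of one of the 3 histone marks, yet the loop table lists 135 of them with none of these marks. Low-confidence genes numbered 36 of the dual-marked genes (30.5%), against 38.4% of H3K27me3-only and 22.6% of active-only genes. Over all looped genes the share was 29.0%, near that of dual-marked genes. Among low-confidence genes, 58.3% ± 7.35 of the dual-marked genes were expressed, against 26.9% ± 1.58 of the H3K27me3-only and 83.6% ± 0.966 of the active-only genes. For high-confidence genes with RNA polymerase II, a restriction chosen after seeing the data, the shares were 81.7% ± 4.19 of 73, 49.9% ± 3.40 of 119 and 96.1% ± 0.447 of 683 genes. Among low-confidence genes without RNA polymerase II, 33.3% ± 10.5 of 11 dual-marked genes were expressed, against 25.5% ± 1.63 of 184 H3K27me3-only and 83.3% ± 4.17 of 24 active-only genes. There the gap to H3K27me3-only genes was within the spread between replicates.

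A few genes held most of the transcripts. The 10 most abundant dual-marked genes made up 78.2% ± 0.857 of the summed TPM of all 118 (SD, n = 3), and TraesCS1A02G089600 alone made up 35.6% ± 6.17. Of these 10 genes, 9 carried H3K36me3 and H3K9ac, and all 10 carried H3K4me3 and RNA polymerase II.

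TraesCS1A02G089600 (chromosome 1A, 79107177 to 79108103, plus strand) had 107, 173 and 118 TPM in replicates 1, 2 and 3, from a median of 6689 estimated counts. TraesCS1A02G407600 (570131664 to 570140605, plus strand) followed with 44.4, 48.1 and 38.5 TPM, and its median rests on 7059 counts. Both lie far above the upper quartile of active-only genes (6.05 TPM) while listed with H3K27me3. TraesCS1B02G033100 (chromosome 1B, 16214960 to 16215274, plus strand) had 37.1, 35.7 and 14.7 TPM, but its transcript of 213 bases is so short that this level rests on 180 counts. TraesCS1B02G052700 (33065679 to 33067109, plus strand) had 31.03, 28.1 and 7.39 TPM, with both kinds of mark on each of its 2 listed intervals. In the last 2 genes, replicate 3 lay far below the other replicates.

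TraesCS1B02G020000LC (chromosome 1B, 9690349 to 9690732, minus strand), a low-confidence gene, had 19.9, 25.5 and 13.4 TPM. TraesCS1B02G022300 (10067449 to 10082262, minus strand) had 14.8, 13.3 and 7.78 TPM and was the only one of the 10 without H3K36me3. TraesCS1A02G073600LC (chromosome 1A, 33364865 to 33365503, plus strand) had 10.8, 13.2 and 8.92 TPM. The levels of these genes lie within the upper quartile of active-only genes. TraesCS1A02G351200 (535769353 to 535770483, minus strand) had 8.42, 8.18 and 4.17 TPM. TraesCS1A02G372300 (548789228 to 548790730, plus strand) had 9.97, 8.14 and 6.19 TPM, and TraesCS1A02G362700 (543618939 to 543625192, plus strand) had 6.38, 7.43 and 9.73 TPM. The last was highest in replicate 3, unlike the other 9.

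**Figure D4:**
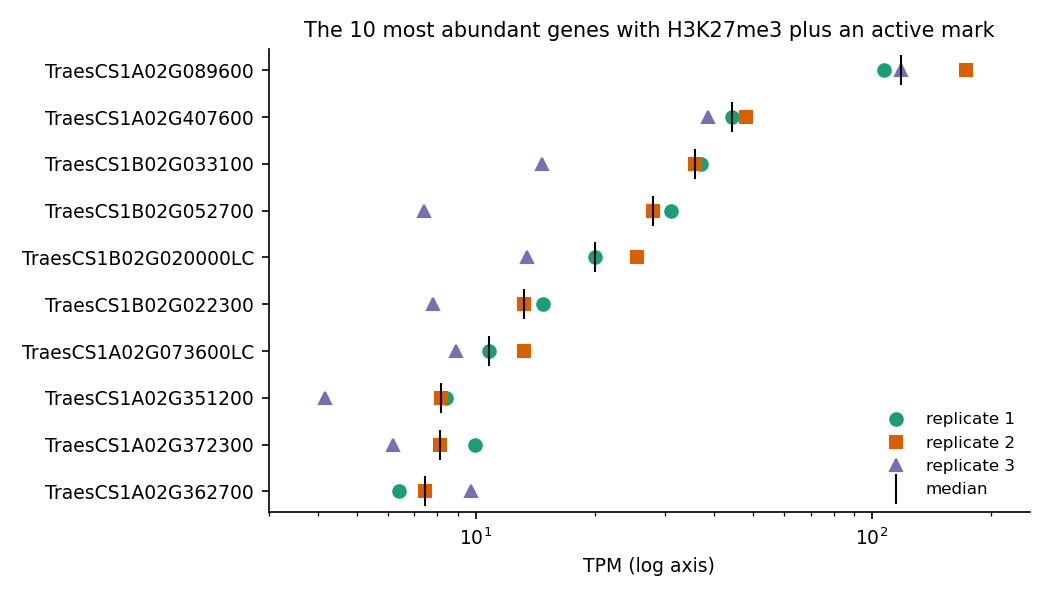
TPM (log axis) of the 10 most abundant dual-marked genes in replicates 1, 2 and 3, with the median as a vertical tick. TraesCS1A02G089600 stands apart at 107 to 173 TPM, and replicate 3 is the lowest value in 8 of the 10 genes.

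At the other end, 34 dual-marked genes had a median of 0 TPM, of which 21 carried RNA polymerase II and 13 H3K36me3. Their transcripts were shorter, with a median length of 883.5 bases against 1576 in the expressed dual-marked genes, and 16 of them were low-confidence. All 5 features were listed on 8 of these 34 genes, and 5 of the 8 had 0 estimated counts in every replicate.

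TraesCS1B02G050700 (chromosome 1B, 30796056 to 30797339, minus strand) was the longest of these 8, with a transcript of 1284 bases and 0 TPM in replicates 1, 2 and 3. TraesCS1B02G064600 (49016574 to 49017497, plus strand) and TraesCS1A02G293700 (chromosome 1A, 489164269 to 489165123, minus strand) likewise had 0 TPM in every replicate. Marks of activity and polymerase were thus listed on genes without a detectable transcript at this depth. A count of 0 allows up to 3 counts, or 0.0325 to 0.0343 TPM in the median detected gene and more in a shorter one, by counting error only. TraesCS1A02G043200LC (17791841 to 17792853, minus strand) had 0, 0 and 0.0338 TPM, and TraesCS1A02G291900 (487695123 to 487695734, minus strand) had 0, 0.0907 and 0 TPM. These single values rest on 2 and 3 estimated counts.

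The 6 dual-marked genes with H3K36me3 but not H3K9ac were all weakly expressed or silent. TraesCS1A02G075600 (chromosome 1A, 58701490 to 58716429, plus strand) had 0.104, 0.0821 and 0.0899 TPM, the only one with more than 10 estimated counts in the median replicate (29.5). TraesCS1A02G616800LC (586950561 to 586951307, plus strand) had 0.0958, 0.178 and 0.279 TPM, and TraesCS1B02G163200 (chromosome 1B, 284046238 to 284048100, minus strand) had 0.187, 0.157 and 0.0395 TPM. None of the 6 reached 1 TPM. TraesCS1A02G266200 (chromosome 1A, 461768723 to 461771079, plus strand) had 0.00609, 0.00637 and 0.0129 TPM from a median of 1 count. TraesCS1A02G442200 had 0 TPM in every replicate, and TraesCS1B02G059400 (chromosome 1B, 41982414 to 41987242, plus strand) had 0, 0 and 0.00504 TPM.

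Among well counted genes, replicate 3 was most often the lowest. At least 10 estimated counts in every replicate were found for 55 dual-marked, 50 H3K27me3-only and 703 active-only genes. Replicate 3 was the lowest in 39 of the 55 dual-marked genes (70.9%), in 70.0% of H3K27me3-only and in 81.1% of active-only genes. The median log2 ratio of replicate 3 to replicate 1 was -0.60 in dual-marked, -0.47 in H3K27me3-only and -0.61 in active-only genes. That of replicate 2 to replicate 1 was 0.08 in dual-marked, 0.11 in H3K27me3-only and 0.09 in active-only genes. The part of this shift in the class differences was not tested beyond leaving out each replicate. The median coefficient of variation over the replicates was 30.8% in dual-marked genes, against 34.6% in H3K27me3-only and 28.7% in active-only genes.

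Of the dual-marked genes with the largest spread, all named here except TraesCS1A02G203600 were lowest in replicate 3. TraesCS1A02G298600 (chromosome 1A, 493500538 to 493503348, minus strand) had 0.870, 3.75 and 0.426 TPM in replicates 1, 2 and 3, a ratio of 8.81 between the highest and the lowest replicate. TraesCS1A02G203600 (365492204 to 365493755, plus strand) had 1.14, 1.21 and 5.30 TPM, the opposite of the general shift, with replicate 3 highest. TraesCS1A02G395100 (560878504 to 560882077, minus strand) had 5.68, 4.46 and 1.78 TPM, and TraesCS1B02G052700, described above, varied 4.20 times between the replicates.

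Positions along the chromosome were compared on chromosome 1A. Of the 86 on that chromosome, 15 lay in its first 50 Mb, 24 in the last 50 Mb before the highest listed coordinate (594002067) and 47 between, so that 45.3% were in the outer parts, against 67.5% of 360 H3K27me3-only and 25.8% of 822 active-only genes. Over all 1645 looped genes on the chromosome the share was 39.2%. The other 32 dual-marked genes were on chromosome 1B. All of these ended at or below 94208581, except TraesCS1B02G163200 (from 284046238) and TraesCS1B02G683400LC (from 634259140). For dual-marked genes, chromosome 1B thus stands here mainly for its first part. Of the 118, 18 lay within 100 kb and 63 within 1 Mb of another dual-marked gene, with a median of 884 kb to the nearest one, and other classes were not compared in this respect. On chromosome 1A alone 61 of 86 were expressed (70.9%), and on chromosome 1B 23 of 32 (71.9%). The classes drew unevenly on the chromosomes, with 211 of 571 H3K27me3-only but 94 of 916 active-only genes on chromosome 1B. The gaps in the share expressed to H3K27me3-only and active-only genes were 45.7 and -21.8 percentage points on chromosome 1A. On chromosome 1B they were 43.9 and -20.7.

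The partners of dual-marked genes had a makeup near that of all looped pairs. The 118 genes took part in 171 of the 1580 unique gene pairs. The median gap between the genes was 99.5 kb, against 117 kb for pairs with H3K27me3-only and 123 kb for pairs with active-only genes. More than 1 pair was listed for 45 of the 118 (38.1%), near the 35.1% of all looped genes. For H3K27me3-only and active-only genes this share was 38.9% and 32.6%. Of the 177 partners counted from the side of dual-marked genes, 67 (37.9%) were active-only and 59 (33.3%) H3K27me3-only. Another 39 had none of the 3 histone marks and 12 (6.78%) were dual-marked. Over all 3160 pair ends, 41.9% were active-only, 30.5% H3K27me3-only, 21.9% had none of these marks and 5.60% were dual-marked. For H3K27me3-only genes, 57.2% of partners were of their own class and 20.4% active-only. For active-only genes, 61.0% were of their own class and 14.9% H3K27me3-only. The dual class as a partner was about equally frequent for all, with 6.78% for dual-marked, 6.11% for H3K27me3-only and 5.06% for active-only genes, near the share of 5.73% that it makes of looped genes. These are counts on a part of the loop table, pairs share genes, and no test was run on them. The authors called loops between genomic bins and then assigned to each bin the genes that overlap it. A listed partner is thus a gene of the bin and need not itself be the site of contact.

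**Figure D5:**
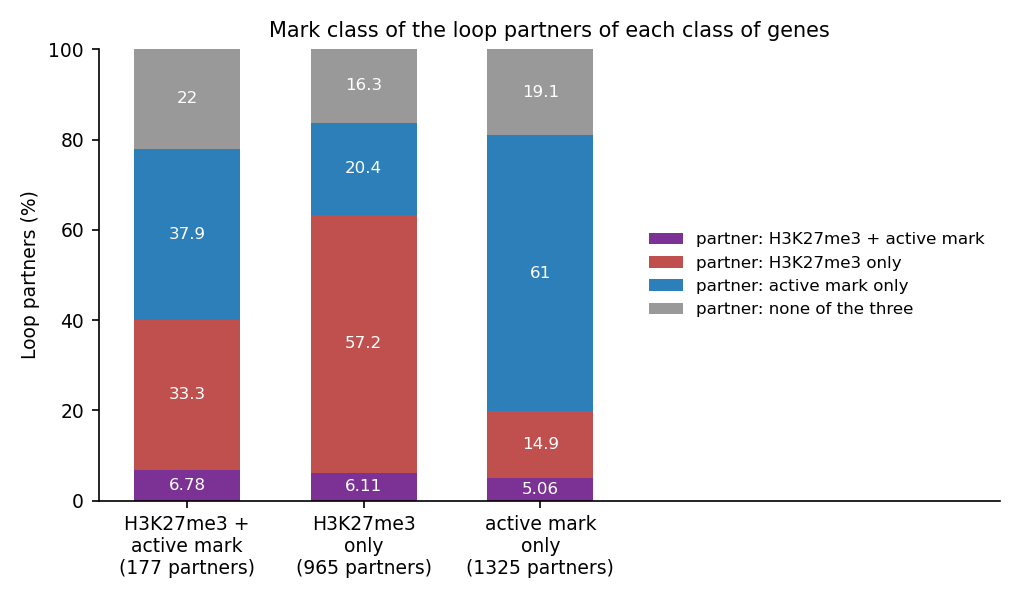
Mark class of the loop partners (percent of partners) of dual-marked (177 partners), H3K27me3-only (965) and active-only genes (1325). The partners of dual-marked genes are divided between active-only (37.9%) and H3K27me3-only (33.3%), near the shares of 41.9% and 30.5% over all pair ends, whereas in the other 2 classes more than 57% of the partners are of the class itself.

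The partners of dual-marked genes were expressed about as often as pair members in general. Of the partners of dual-marked genes 59.3% ± 2.04 were expressed, against 43.6% ± 0.452 of the partners of H3K27me3-only and 71.8% ± 1.26 of the partners of active-only genes, with 58.9% ± 1.02 over all pair ends (SD, n = 3). Of 33 dual-marked genes whose partners were all H3K27me3-only, 21 were expressed (63.6%), and of 38 whose partners were all active-only, 29 were (76.3%). The medians of these 2 sets were 0.0522 and 0.186 TPM. Of 16 whose partners all had none of the 3 histone marks, 12 were expressed, with a median of 0.201 TPM. Of 5 whose partners were all dual-marked, 4 were expressed, with a median of 0.813 TPM. Over all 118 dual-marked genes, 84 were expressed (71.2%), with a median of 0.146 TPM. The set joined only to genes with none of these marks was thus near that joined only to active-only genes. A ratio could be formed only where both genes of a pair were above 0 TPM in every replicate, which leaves out pairs with a silent gene and so depends on expression itself. It was left for 47 pairs with an active-only gene, in which the dual-marked gene was higher in 18 and lower in 29, and for 10 of the 59 pairs with an H3K27me3-only gene (4 higher, 6 lower) and 10 of the 39 with a gene of none of these marks (7 higher, 3 lower). These counts describe the pairs that remained and not the classes.

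Only 6 pairs joined 2 dual-marked genes. In 3 of them both genes were expressed, in 2 only 1 was, and in 1 neither was. TraesCS1A02G295900 (chromosome 1A, 490893557 to 490894966, plus strand) with 1.38, 1.52 and 0.662 TPM was joined to TraesCS1A02G296100 (491128110 to 491130587, plus strand) with 1.93, 2.602 and 1.16 TPM, and the 2 genes had the same order of replicates. On chromosome 1B, TraesCS1B02G010100LC (5757975 to 5758866, plus strand) with 1.62, 1.39 and 2.17 TPM was joined to TraesCS1B02G012000 (5851440 to 5857886, plus strand) with 0.813, 0.636 and 0.986 TPM, again in the same order. In the pair of TraesCS1B02G070500 (55950694 to 55952283, plus strand) and TraesCS1B02G107100LC, the values were 0.0550, 0.00981 and 0.0114 TPM for the first gene and 0.938, 0.624 and 0.440 TPM for the second, and the first rests on a median of 1.20 counts. In this last pair the order of replicates 2 and 3 differed between the genes. With 3 replicates, an agreement in order carries no test. Replicate 3 was also the lowest in 70.9% of well counted dual-marked genes, so genes can share the order of the first pair without being joined.

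Loops also joined dual-marked genes to partners of very different level. TraesCS1B02G033100, at a median of 35.7 TPM, was joined to the active-only TraesCS1B02G045600LC (chromosome 1B, 23970611 to 23978947, minus strand) with 0.104, 0.0780 and 0.0157 TPM, a mean log2 ratio of 9.06 ± 0.72 (SD, n = 3). In the opposite direction, TraesCS1A02G266200, at 0.00637 TPM, was joined to the active-only TraesCS1A02G266500 (chromosome 1A, 461995982 to 462000591, plus strand) with 2.98, 3.14 and 1.19 TPM and to TraesCS1A02G251100 (442606330 to 442613294, plus strand) with 3.12, 2.32 and 1.47 TPM. The mean log2 ratios were -8.13 ± 1.40 and -8.11 ± 1.14. The lower partners in these pairs rest on medians of 5 and 1 estimated counts, so that the size of the ratios is rough.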

How the data were processed

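Shoots of Chinese Spring seedlings were profiled by directional poly(A) RNA-seq in 3 replicates. Per the labels, Trimmomatic 0.36 was used on the reads. The authors ran kallisto (version not given in the sources used here) on an annotation built from IWGSC RefSeq v1.1 and deposited 2 measures per transcript. The deposited estimated counts are unnormalized, and the deposited TPM values correct them for effective length and library size. Transcript lengths stand in the same tables. Where transcripts are alike, kallisto apportions their reads, so close copies such as homoeologs are uncertain.

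Transcript values were added up to gene values, and the median over replicates was used. Marks and coordinates (IWGSC RefSeq v1.0) came from 1999 of the 47678 rows of the study's loop table, and the remaining rows were not analysed here. The authors listed marks by presence or absence of peaks, called with MACS2 on published histone ChIP-seq and on their own RNA polymerase II ChIP-seq. How H3K4me3 was called is not given in the sources used here. Length classes are tertiles over the 2060 looped genes, by the longest transcript.

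The comparisons give each replicate's value, the SD over the 3 replicates and an exact two-sided sign-flip permutation test over libraries. No test was run over genes, and scripts were tested on simulated data. Depth limits genes under 3 estimated counts, and limits given cover counting error only.

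The members, lists and tests were chosen with earlier results of these data known. Genes named are the 10 dual-marked genes with the highest median TPM, all with H3K36me3 but not H3K9ac, the 5 with all 5 features and the lowest median TPM (longest transcript first among ties), the one with most intervals, the 3 pairs of 2 dual-marked genes with the highest lower partner, the 4 with the largest ratio between replicates among those with at least 10 estimated counts in each, and the 3 pairs with another gene with the largest log2 ratio. TraesCS1B02G092300 was chosen after its values were seen. The only gene table used for reference is of IWGSC CS RefSeq v2.1 and holds none of these identifiers, so genes are given by identifier, without name, function, exon structure or sequence. Alternatives were other cuts for expressed genes, the mean of replicates, leaving out each replicate, other pseudocounts and subsets of genes. Software was pandas 2.3.3 with numpy 2.4.6 under Python 3.11.15, and figures were drawn with matplotlib 3.10.9.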

Additional observations from a re-analysis of the deposited data

How the results depend on the processing

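Both gaps in the share of expressed genes kept their sign under every alternative run. The reported gaps by the median of replicates, 44.9 percentage points for dual-marked minus H3K27me3-only genes and -21.5 for dual-marked minus active-only genes, became 40.5 and -28.8 at a cut of 0.1 TPM, 29.8 and -31.7 at 0.5 TPM and 24.8 and -30.8 at 1 TPM. With RNA polymerase II required they were 32.5 and -15.1, and among high-confidence genes with RNA polymerase II, a setting chosen after seeing the data, 31.8 and -14.1. The gap to H3K27me3-only genes was 52.2 among high-confidence genes and 52.6 with H3K36me3 and H3K9ac both required, and the gap to active-only genes was -16.4 by the mean of replicates. Leaving out each replicate gave 41.0 to 45.7 and -21.6 to -15.8. The median of dual-marked genes, 0.146 TPM, was 0.178 among high-confidence genes, 0.181 on chromosome 1B, 0.194 among high-confidence genes with RNA polymerase II, 0.520 among expressed genes and 0.116 to 0.142 without a replicate. That of H3K27me3-only genes, 0 TPM, was 0.0823 among expressed genes and 0.00340 among high-confidence genes with RNA polymerase II. The differences in mean log2(TPM + 0.01) of 3.12 and -2.63 became 1.77 and -1.79 with a pseudocount of 0.1, 0.75 and -0.89 with a pseudocount of 1, and 1.74 and -1.23 among genes with at least 3 estimated counts. Of 42 differences between classes under alternatives, 22 moved by less than the spread between replicates and 20 by more, and 0 changed sign. The median TPMs cannot change sign and are not in this count.

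No paired analysis was possible because all 3 libraries belong to 1 condition. Shares of expressed genes rest on single counts at the low end, so depth limits them most in short and weakly expressed genes. Peak heights and positions were not analysed here, and marks and transcripts come from different plants. The looped genes are those of a part of the loop table that draws unevenly on 2 chromosomes.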
